A study of Mus musculus with 2 samples.

Results

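The conjugating enzymes described here are the UDP-glucuronosyltransferases (UGT), the glutathione S-transferases (GST) with their microsomal relatives (MGST), and the cytosolic sulfotransferases (SULT). Members were the probe sets that name exactly 1 gene in the platform annotation and whose symbol begins with Ugt1, Ugt2 or Ugt3, with Gst followed by a class letter (a, m, p, t, k, o or z), with Mgst, or with Sult and a family number. The rule found 52 genes of 22180, each with 1 probe set: 10 UGT, 18 GST of the soluble classes (called cytosolic GST here, with the mitochondrial and peroxisomal class k among them), 3 MGST and 21 SULT genes. RNA came from the colons of healthy male ICR mice, an outbred stock, aged 7 weeks. The control array represents mice on a psyllium-free diet. The psyllium array represents mice given 10% psyllium, the viscous fibre of Plantago seed husks, in the diet for 5 days. How many mice gave RNA to each array, and which part or layers of the colon were taken, is not stated in the labels. With 1 array per diet there is no replicate, so differences carry no error and no test was possible.

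These enzymes make foreign and endogenous compounds more water-soluble by attaching a polar group. UGTs sit in the endoplasmic reticulum membrane and transfer glucuronic acid from UDP-glucuronic acid. GSTs attach glutathione to reactive electrophiles, and SULTs transfer sulfate from the donor PAPS to phenols, amines and steroids. In the intestine, absorptive epithelial cells carry much of this capacity, and many of the genes respond to receptors for dietary and bacterial compounds. Many members are recent gene copies that lie side by side in clusters.

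The values are normalised intensities on a linear scale, and a difference is log2 psyllium minus log2 control, so a negative value means lower on the psyllium array. A gene passed the intensity filter when its brighter array reached 69.5, the median of that quantity over all genes. Of the 52 members 24 passed, and 22 reached that intensity on both arrays. The arrays held 41345 probe sets with medians of 48.9 (control) and 49.8 (psyllium). For 1013 probe sets (2.45%) the deposited values of both arrays were identical, and 3 members, Gsta4, Ugt2b37 and Sult3a2, were among them.

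No conjugating enzyme past the filter was higher by 1.5-fold on the psyllium array, and 7 of the 24 (29.2%) were lower by at least that much: Gstm3, Sult2b1, Ugt2b5, Mgst1, Gstp3, Sult1b1 and Mgst3. Over all 11090 genes past the filter, 2.42% were at least 1.5-fold lower and 4.03% at least 1.5-fold higher. At 2-fold, 2 members, Gstm3 and Sult2b1, were lower and none higher, beside 0.514% and 1.06% of all genes past the filter. Of the 24 members 20 had negative differences, 3 had positive ones and 1 was at 0, whereas 56.6% of all genes past the filter were negative. The median difference was -0.20 over these 24 members and -0.04 over all genes past the filter. Over all 52 members the median was -0.15, beside a value near 0 for all 22180 genes, and 38 members (against 50.2% of all genes) were negative.

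The filter acts on the brighter array, so it can favour a gene that is bright on 1 array alone. Gstp3 and Gstm4 passed on the control array only. Without them, 6 of the 22 members bright on both arrays (27.3%) were at least 1.5-fold lower, beside 2.08% of the 10229 genes bright on both arrays. With no filter, 9 of the 52 members were at least 1.5-fold lower and 1 at least 1.5-fold higher, beside 2.8% and 3.42% of all genes. The 3 dim members past 1.5-fold were Sult6b2 (control 52.3, psyllium 27.7), Ugt2b36 (32.6 and 19.1) and Sult2a6 (4.82 and 8.47). Such intensities give no settled size. The number of arrays limits the precision of all these values.

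**Figure D1:**
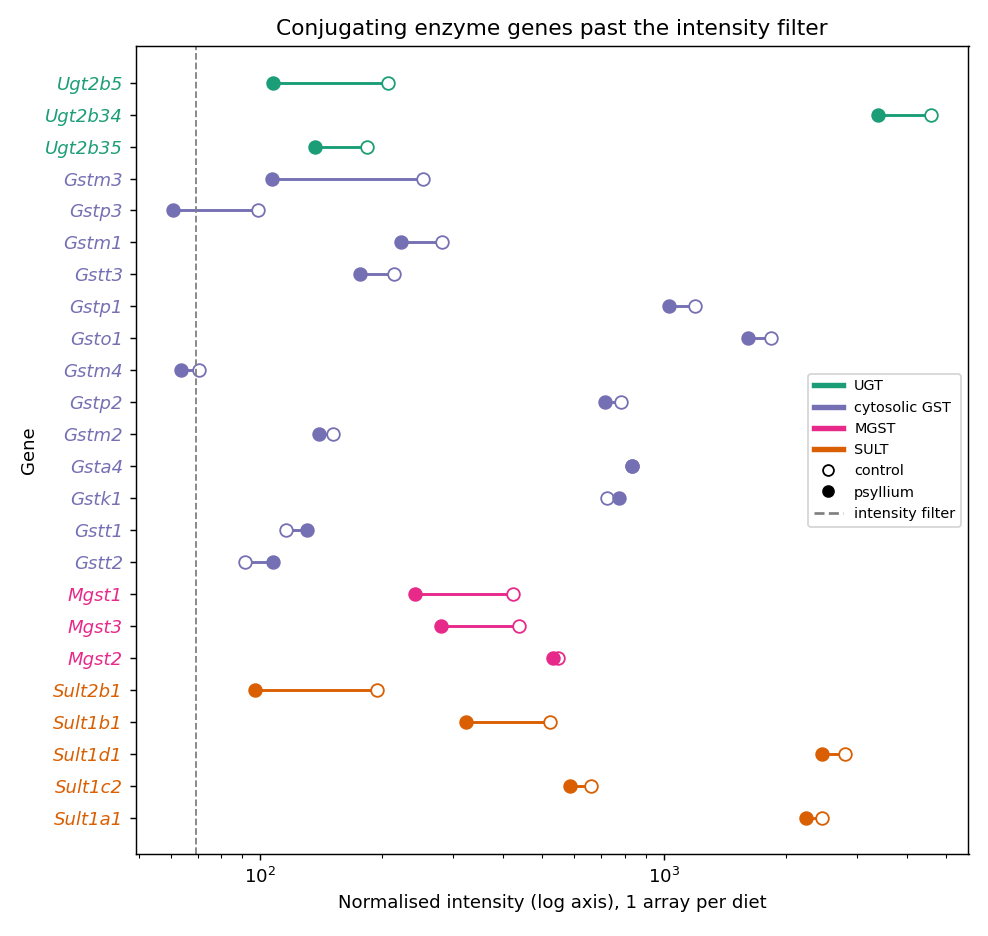
Normalised intensity (log axis) of the 24 conjugating enzyme genes past the filter, on the control array (open circles) and the psyllium array (filled circles), coloured by family and ordered within each family by the difference. The dashed line is the filter's intensity of 69.5. The longest lines, to the left, belong to Gstm3 (253 and 107) and Sult2b1 (195 and 97.0), and 3 genes, Gstk1, Gstt1 and Gstt2, have the filled circle to the right.

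The families differed in how bright their probe sets were. All 3 MGST genes passed the filter, as did 13 of 18 cytosolic GST genes, 5 of 21 SULT genes and 3 of 10 UGT genes. Control intensities of the genes past the filter ran from 423 to 547 for MGST, from 70.5 to 1838 for cytosolic GST, from 195 to 2811 for SULT and from 184 to 4572 for UGT. Brightness also depends on each probe set's own probes, so these ranges do not rank the transcripts by abundance. Median differences past the filter were -0.64 for MGST (3 genes), -0.43 for UGT (3 genes), -0.19 for SULT (5 genes) and -0.15 for cytosolic GST (13 genes). With no filter the medians were -0.64, -0.19, -0.13 and -0.13. All of these have the sign of the whole set, and whether the families differ was not testable with 1 array per diet.

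Among the UGTs, the steroid- and phenol-conjugating subfamily 2b supplied all 3 genes past the filter, and each was lower on the psyllium array. Ugt2b34 had the highest intensity of all 52 members' probe sets, at 4572 with the control diet and 3385 with psyllium, a difference of -0.43 (1.35-fold lower). Ugt2b35 read 184 and 137, also a difference of -0.43. Ugt2b5 (probe set 17449346) read 207 and 108, a difference of -0.94 (1.92-fold lower). The other 7 UGT members were below the filter, with control intensities that did not exceed 41.2, and 6 of them were negative. They comprise Ugt2a3, Ugt3a1, Ugt3a2, Ugt2b1, Ugt2b36, Ugt2b37 and Ugt2b38.

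Ugt2b5 stood within a run of like genes in the RefSeq gene table of assembly GRCm38.p6. Its neighbours were Ugt2b36 on one side, at -0.77 but dim, and Ugt2b37 on the other, with 8.98 on both arrays. Sequences before the start sites of the 7 Ugt2b genes are shown because members of this cluster read so differently. Each line gives the 60 bases before the RefSeq start, 5′ to 3′ on the gene's strand, with any AGGTCA, the core site of nuclear receptors, in capitals.
Ugt2b34 (chr5:86906938-86906997, minus strand): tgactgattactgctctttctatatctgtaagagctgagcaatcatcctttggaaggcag
Ugt2b1 (chr5:86926504-86926563, minus strand): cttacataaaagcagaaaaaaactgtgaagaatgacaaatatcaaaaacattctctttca
Ugt2b35 (chr5:87000800-87000859, plus strand): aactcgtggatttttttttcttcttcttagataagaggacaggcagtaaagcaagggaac
Ugt2b36 (chr5:87092556-87092615, minus strand): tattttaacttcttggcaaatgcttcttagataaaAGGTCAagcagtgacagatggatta
Ugt2b5 (chr5:87140341-87140400, minus strand): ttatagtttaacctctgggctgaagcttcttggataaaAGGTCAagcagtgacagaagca
Ugt2b37 (chr5:87254789-87254848, minus strand): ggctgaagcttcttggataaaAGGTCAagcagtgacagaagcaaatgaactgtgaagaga
Ugt2b38 (chr5:87424204-87424263, minus strand): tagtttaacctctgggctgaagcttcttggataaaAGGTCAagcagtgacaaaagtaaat
AGGTCA was searched on both strands of RefSeq windows from 250 bases before to 50 after each start. It was present in the windows of 5 of the 7 Ugt2b genes (71.4%), and in 16.3% of all 32851 windows. In Ugt2b35 it lies 215 bases before the start, outside the bases shown. The stretch gataaaAGGTCAagcagtgaca of 22 bases occurs in Ugt2b5, Ugt2b36, Ugt2b37 and Ugt2b38, and in no other window of the table. These genes are copies of one another, so they are not separate occurrences. Genes with this stretch ranged from a difference of -0.94 (Ugt2b5) to 0.00 (Ugt2b37), but only Ugt2b5 among them was past the filter. Ugt2b34 and the dim Ugt2b1, without AGGTCA in the window, were at -0.43 and -0.19. Whether the stretch goes with the difference was not tested, and values of dim genes could not show it. A match describes the letters only. Probes for such close copies may also bind each other's transcripts, so the value of each Ugt2b gene is uncertain to that extent.

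The Ugt1a genes, which include the bilirubin-conjugating Ugt1a1, share their last exons and had no probe set of their own. A probe set naming 5 of them read 530 with the control diet and 395 with psyllium, a difference of -0.42. A probe set naming 8 of them read 134 and 107, a difference of -0.32. Neither reached 1.5-fold.

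Among the cytosolic GSTs the mu class held the largest difference of all members past the filter. Gstm3 (probe set 17409130) read 253 with the control diet and 107 with psyllium, a difference of -1.24 (2.36-fold lower). It was the 38th lowest of the 11090 genes past the filter. Its relatives in the same cluster differed by less. Gstm1 read 282 and 223 (-0.34), and Gstm2 read 152 and 140 (-0.12). Gstm4 read 70.5 and 63.6 (-0.15), while Gstm7 (62.3 and 60.0) and Gstm6 (47.9 and 36.1) were below the filter. The gap between Gstm3 and its neighbour Gstm2 was 1.12 on the log2 scale. For comparison, paired probe sets of 1 gene differed by a median of 0.19 over the 286 genes with 2 of them past the filter, and by 0.49 at the 90th percentile. The widest of those gaps was 6.10. They measure agreement within 1 gene on the same RNA, not between different genes or between animals. Gstm3 was singled out for its large difference, so its wide gap to a relative is partly a product of that choice.

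The 250 bases before the start of Gstm3 (chr3:107969175-107969424, minus strand, GRCm38.p6, RefSeq) are shown because this gene had the largest difference. Capitals would mark any of 5 motifs searched on both strands, and none was present.
Gstm3: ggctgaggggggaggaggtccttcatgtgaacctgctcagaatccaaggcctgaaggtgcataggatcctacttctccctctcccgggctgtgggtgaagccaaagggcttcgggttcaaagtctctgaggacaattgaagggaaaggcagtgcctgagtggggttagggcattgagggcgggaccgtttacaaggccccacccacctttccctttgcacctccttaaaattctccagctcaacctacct
The motifs were TGACNNNGC, the core of the antioxidant response element bound by Nrf2, GCGTG, the core of the element bound by the aryl hydrocarbon receptor, GTTAAT, part of the site of Hnf1 factors, TTTATG, a core of Cdx factors, and AGGTCA. No match says only that these letters are not in this window. Over the 56 windows of the 45 members in the table, TGACNNNGC was present in 5.36%, beside 12.4% of all windows. GCGTG was present in 16.1% beside 32.4%, TTTATG in 7.14% beside 11.9%, and AGGTCA in 17.9% beside 16.3%. GTTAAT was present in 17.9% beside 7.1%. Its holders were Gsta3, Sult1a1, Sult1d1, Sult3a2, Ugt2a3, Ugt3a1 and the close copies Sult2a3, Sult2a4, Sult2a5 and Sult2a6, which are not separate occurrences. Of the 10 windows of the 7 lower genes, 5 held GCGTG (Gstp3, Mgst3, Sult1b1 and Sult2b1), 2 held AGGTCA (Sult1b1 and Ugt2b5), and 1 held TGACNNNGC and TTTATG (Mgst1). GTTAAT was in 0 of these 10.

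In the pi class, Gstp1, the main pi enzyme of many epithelia, read 1192 and 1026 (-0.22). Gstp2 read 784 and 714 (-0.13), and Gstp3 (probe set 17361090) read 98.8 and 61.0, a difference of -0.70 (1.62-fold lower). The Gstp3 value on the psyllium array is below the filter's intensity, so its size is uncertain. A probe set that names Gstp1 and Gstp2 together read 591 and 473, a difference of -0.32. Gstp1 and Gstp2 are near-identical copies, and their signals cannot be fully separated.

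In the alpha class the probe sets went apart. Gsta4, which detoxifies aldehydes from lipid peroxidation, read 832 on both arrays. Gsta1 and Gsta2 had no probe set of their own. A probe set naming both of them with 2 predicted genes read 283 and 140.5, a difference of -1.01 (2.02-fold lower). It was the 1 probe set past 1.5-fold among the 7 shared probe sets past the filter. A second shared Gsta1 and Gsta2 probe set read 96.7 and 74.6 (-0.37), and the last one was dim at 6.38 and 7.65. The shared probe sets naming Gstm5 (179 and 158) and Gstz1, an enzyme of tyrosine breakdown (223 and 221), differed by -0.18 and -0.01, each together with an unrelated gene.

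The positive differences past the filter were in the theta and kappa classes. Gstt1 read 116 with the control diet and 131 with psyllium (0.17), and Gstt2 read 91.9 and 108 (0.23), while their neighbour Gstt3 read 215 and 177 (-0.28). Gstk1 of mitochondria and peroxisomes read 721 and 772 (0.10). Gsto1, which reduces dehydroascorbate and methylated arsenic, read 1838 and 1609.8 (-0.19). None of these 5 genes reached 1.5-fold. The other cytosolic GST members, Gsta3, Gsto2 and Gstt4, were below the filter on both arrays.

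The 3 microsomal transferases belong to another protein family, embedded in membranes, and act as glutathione transferases and peroxidases. Mgst1 (probe set 17463909) read 423 and 241, a difference of -0.81 (1.75-fold lower). Mgst3 (probe set 17229403) read 438 and 280.0, a difference of -0.64 (1.56-fold lower). Mgst2, which can also form leukotriene C, read 547 and 530.3, a difference of -0.05. Mgst1 and Mgst3 lay below Mgst2 by 0.76 and 0.60 on the log2 scale. Mgst3 was also the member just inside 1.5-fold, with Ugt2b34, at -0.43, the next one outside it among members past the filter.

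Of the sulfotransferases, Sult2b1 and Sult1b1 were at least 1.5-fold lower and the 3 others past the filter were not. Sult2b1 (probe set 17490939), which sulfates cholesterol and related sterols, read 195 and 97.0, a difference of -1.01 (2.01-fold lower). Sult1b1 (probe set 17449394), which acts on thyroid hormones and phenols, read 521 and 323, a difference of -0.69 (1.61-fold lower). Sult1d1, which acts on catecholamines, read 2811 and 2465 (-0.19), and Sult1a1, the main phenol sulfotransferase, read 2468 and 2251 (-0.13). Sult1c2 read 660.4 and 584 (-0.18). Sult1b1 and Sult1d1 are adjacent in the gene table, next to the Ugt2 cluster, and their differences were 0.50 apart.

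The remaining 16 SULT members were below the filter on both arrays. They included the oestrogen sulfotransferase Sult1e1 (11.8 and 10.9), the 8 Sult2a genes, whose liver forms sulfate bile acids and androgens, and Sult4a1 of the brain (41.5 and 34.3). The highest control intensity among the Sult2a genes was 36.4, for Sult2a4.

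RefSeq lists 2 windows for Sult2b1, which is transcribed from separate starts. They are shown because Sult2b1 was the other member past 2-fold, and GCGTG is in capitals (chr7:45759613-45759862 and chr7:45742479-45742728, minus strand, GRCm38.p6).
Sult2b1, upstream start: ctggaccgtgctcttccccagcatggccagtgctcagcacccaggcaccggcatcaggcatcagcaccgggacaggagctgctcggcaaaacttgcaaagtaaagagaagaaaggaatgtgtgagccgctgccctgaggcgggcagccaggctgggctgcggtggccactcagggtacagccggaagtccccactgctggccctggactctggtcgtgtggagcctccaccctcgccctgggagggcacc
Sult2b1, downstream start: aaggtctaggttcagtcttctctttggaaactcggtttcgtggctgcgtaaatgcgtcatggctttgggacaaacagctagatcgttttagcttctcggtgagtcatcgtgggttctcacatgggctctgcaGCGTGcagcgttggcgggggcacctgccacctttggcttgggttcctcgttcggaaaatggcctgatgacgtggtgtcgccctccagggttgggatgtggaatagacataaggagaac
The downstream window holds GCGTG before the start and the upstream one holds none of the 5 motifs there. The array gives 1 value for the gene and does not separate the starts.

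**Figure D2:**
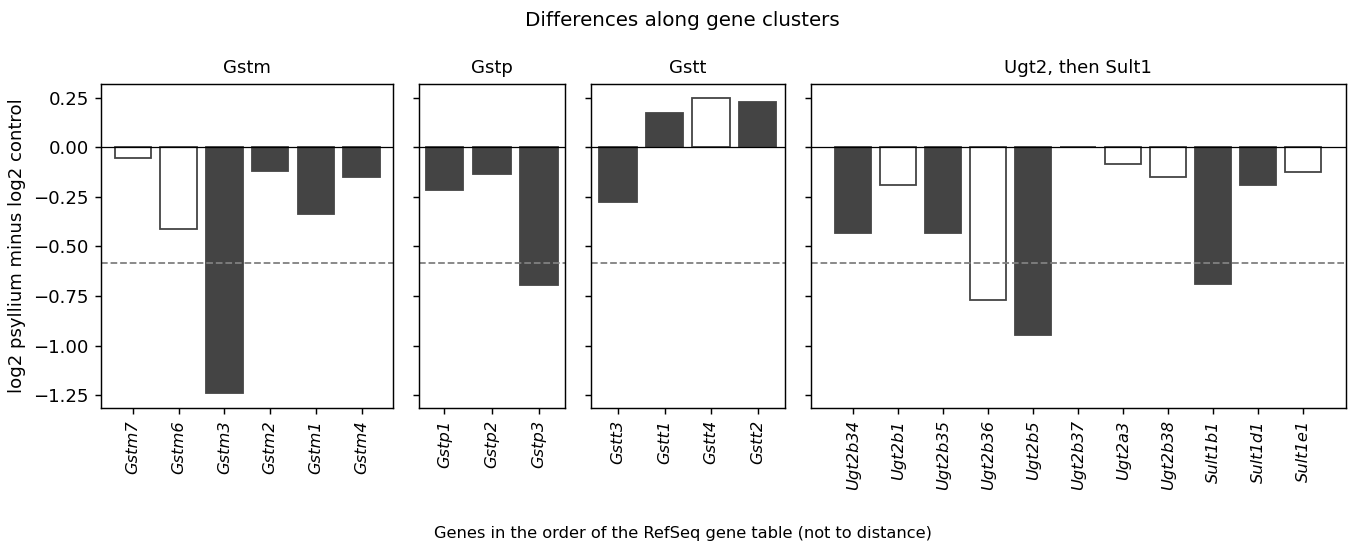
Difference (log2 psyllium minus log2 control) of members in 4 gene clusters, in the order of the RefSeq gene table and not to distance. Filled bars are genes past the filter, open bars are dimmer genes, and the dashed line marks 1.5-fold lower; Gstm3 (-1.24), Gstp3 (-0.70), Ugt2b5 (-0.94), Sult1b1 (-0.69) and the dim Ugt2b36 (-0.77) pass it, and Ugt2b37 is at 0.

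**Figure D3:**
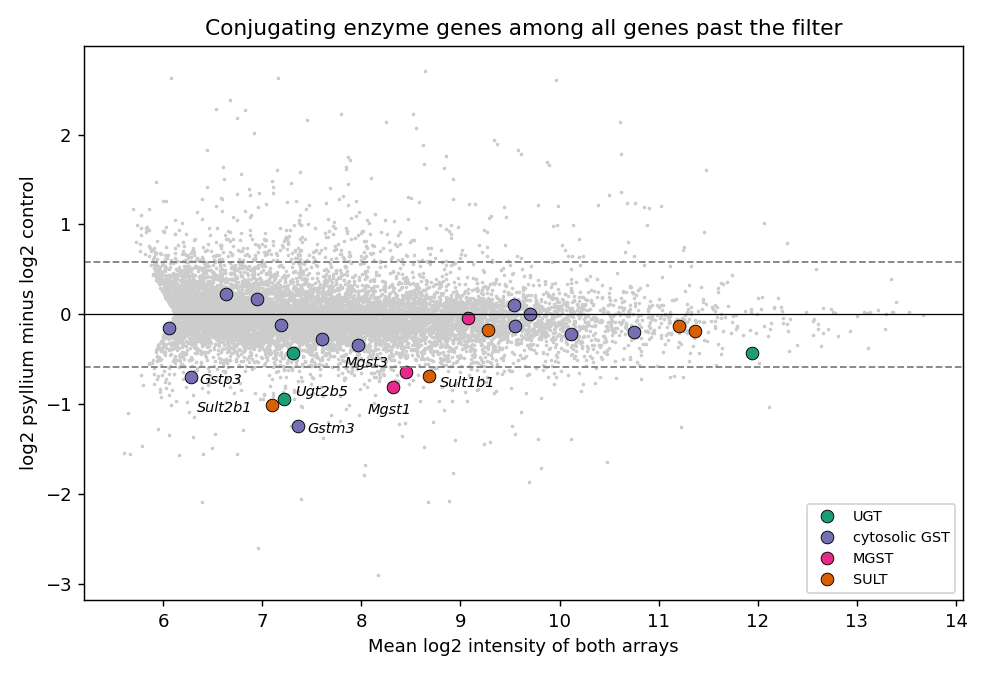
Difference (vertical, log2 psyllium minus log2 control) against the mean log2 intensity of both arrays (horizontal) for the 11090 genes past the filter (grey) and the 24 members (coloured by family). Dashed lines mark 1.5-fold; the 7 named members lie below the lower line and none lies above the upper one.

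The genes that supply the donors mostly differed by less than 1.5-fold. Of 5 genes of glucuronic acid supply, none was past 1.5-fold in either direction, and their median was -0.26. Ugdh, which makes UDP-glucuronic acid, read 4562 and 3354 (-0.44), and Gusb, the lysosomal enzyme that removes glucuronic acid, read 228 and 249 (0.13). The median of 9 measured genes of sulfate supply was -0.33, with 5 negative and 4 positive. None was 1.5-fold higher and 1 was lower by that much, beside 4.03% and 2.42% of all genes past the filter. The lower gene was the sulfate carrier Slc26a1 (106 and 54.0, the latter under the filter's intensity). The PAPS synthase Papss2 read 4979 and 3426, a difference of -0.54, while its relative Papss1 read 872 and 905 (0.05).

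Of 11 measured genes of glutathione supply, 8 were past the filter, and their median was -0.40. None of the 8 was 1.5-fold higher and 1 was 1.5-fold lower, beside 4.03% and 2.42% of all genes past the filter. The lower one was Dpep1, a dipeptidase that degrades glutathione conjugates (1580.2 and 922, 1.71-fold lower). The synthesis genes Gclm, Gss and Gclc differed by -0.51, -0.46 and -0.31, and the reductase Gsr by -0.09.

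The list of export carriers, which holds exporters of conjugates and also the drug pumps Abcb1a and Abcb1b, went different ways. The 7 past the filter had a median near 0, with 3 lower by 1.5-fold or more and none higher. Of all genes past the filter, 2.42% were lower and 4.03% higher by that much. Abcb1a, an efflux pump for unconjugated drugs, read 3694 and 1545 (2.39-fold lower). Abcc3, a basolateral exporter of glucuronides, read 880.1 and 487 (1.81-fold lower), and Abcg2, an apical exporter of sulfates, read 372 and 225 (1.66-fold lower). Abcc1 read 190 and 274, a positive difference of 0.53.

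Of 15 genes of xenobiotic sensing past the filter, 13 had negative differences, beside 56.6% of all genes past the filter. The median of the 15 was -0.25. Only the fatty acid receptor Ppara (292 and 179) was at least 1.5-fold lower, at 1.63-fold, beside 2.42% of all genes past the filter. The list also holds Hnf4a (-0.48), Hnf4g (-0.11), Cdx1 (-0.29) and Cdx2 (-0.49). Of these, Hnf4a, Cdx1 and Cdx2 are counted again among the pan-epithelial markers below. The dim Ahrr (0.30) and Nr1i3 (0.10) had positive differences. The pregnane X receptor Nr1i2 read 494 and 337 (-0.55). The aryl hydrocarbon receptor Ahr read 196 and 192 (-0.03), and Nfe2l2, which encodes Nrf2, read 2113 and 1779 (-0.25). Of 9 other conjugating or sulfur-transferring enzymes past the filter the median was -0.45. None was 1.5-fold higher and 2 were lower by that much, beside 4.03% and 2.42% of all genes past the filter. The 2 were Ugt8a, the galactosyltransferase of galactolipids (596 and 339, 1.76-fold lower), and the sulfurtransferase Mpst (712 and 391, 1.82-fold lower). Over all 14 measured genes of this list, dim ones included, the median was 0.04, with 7 negative and 7 positive.

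Enzymes that act before conjugation are given for comparison. Of 27 cytochrome P450 genes past the filter 10 were at least 1.5-fold lower (median -0.44), and of 10 carboxylesterase genes 5 were (median -0.68). Of all genes past the filter 2.42% were. The filter's intensity was reached on both arrays by 22 of the 27 P450 genes and 8 of the 10 carboxylesterase genes. The median of the 24 conjugating enzymes was -0.20. With no filter the medians were -0.12 for 98 P450 genes, -0.26 for 19 carboxylesterase genes and -0.15 for the 52 conjugating enzymes. The counts at least 1.5-fold lower were then 16 (16.3%), 5 (26.3%) and 9 (17.3%), beside 2.8% of all genes. The order of P450 and conjugating enzymes thus depends on the filter. No test of these differences was possible with 1 array per diet.

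Markers of cell types differed between these arrays too. All 24 pan-epithelial markers were past the filter and had negative differences, from -0.57 to -0.01 with a median of -0.28, and their summed intensity was 42575 with the control diet and 36022 with psyllium. Of 15 absorptive colonocyte markers 8 were at least 1.5-fold lower (median -0.63), and their sums were 38661 and 28758. Among these 15, Cyp2c55 is also a P450 gene and Slc26a3 is also in the list of sulfate supply. All 12 goblet cell markers were positive (median 0.29). Smooth muscle markers were at least 1.5-fold higher for 15 of 16 (median 1.26, sums of 15668 and 36839), and fibroblast and matrix markers for 12 of 15 (median 1.24, sums of 6934 and 17721). For all genes past the filter, the shares were 2.42% at least 1.5-fold lower and 4.03% at least 1.5-fold higher. Medians of the markers past the filter were -0.80 for T and innate lymphocytes (6 genes), -0.49 for small intestine enterocytes (11 genes), -0.02 for endothelium (10 genes), 0.42 for macrophages (12 genes) and 0.26 for adipocytes (5 genes). The filter acts on the brighter array, and only 3 of the 6 lymphocyte genes reached its intensity on both. Over all 11 measured lymphocyte genes the median was -0.65, with 10 negative and 1 positive. Of the 24 conjugating enzymes past the filter, 13 lay within the range of the pan-epithelial markers, 7 below it and 4 above it. The 7 below it are the same 7 genes that were at least 1.5-fold lower, as were 2.42% of all genes past the filter. The bottom of the range, Cldn4 at -0.57, is close to 1.5-fold (0.585 on the log2 scale). The match of the 7 genes follows from that closeness. The share of all genes within or above the pan-epithelial range was not counted, so the 13 and the 4 stand without a background. The part of these shifts in the differences of the conjugating enzymes was not tested. In tissue RNA, fewer cells of a type and less RNA per cell cannot be told apart.

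Of the 15 absorptive colonocyte markers, 14 reached the filter's intensity on both arrays, among them Car1 (10099.8 and 7791). The exception was Aqp8 (307 and 50.5). All 24 pan-epithelial markers reached it on both arrays, among them Epcam (3031 and 2883). Since many conjugating enzymes are liver genes, hepatocyte markers were also read. Only 2 of 14 were past the filter, Cps1 (299 and 193, 1.55-fold lower) and Tat (739 and 514, a difference of -0.52). Albumin, Alb, read 16.6 and 17.6.

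**Figure D4:**
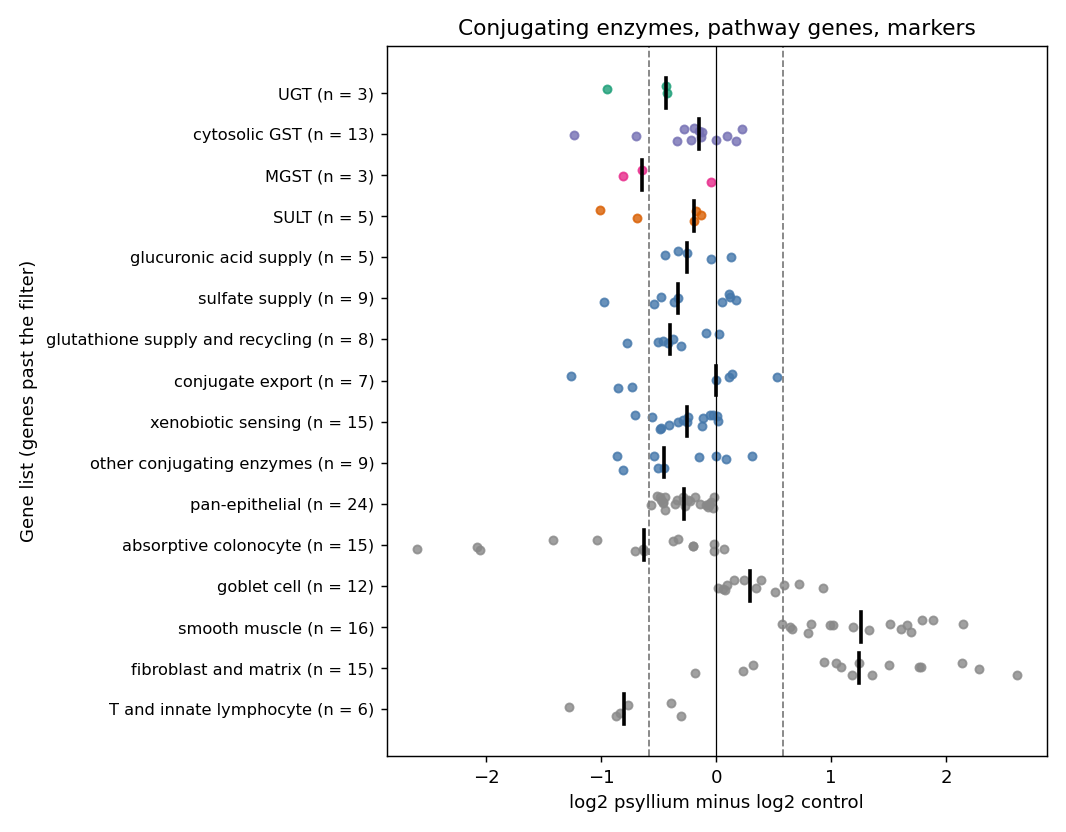
Differences (log2 psyllium minus log2 control) of genes past the filter in the 4 conjugating enzyme families, 6 lists of pathway genes (blue) and 6 lists of cell type markers (grey). Each point is a gene, black bars are medians and dashed lines mark 1.5-fold in either direction; the family medians run from -0.64 (MGST) to -0.15 (cytosolic GST), beside -0.28 for pan-epithelial and 1.26 for smooth muscle markers.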

How the data were processed

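Total RNA was labelled with biotin, per the labels' protocols, and measured on 1 array per diet. The deposited table holds linear-scale intensity values, normalised by the authors. The submitters' processing notes name RMA and Affymetrix Expression Console with no version. If RMA equalised the arrays, differences are relative to the bulk of transcripts. The deposited intensities, all above 0, were converted to log2 with no pseudocount.

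Genes were named from the platform annotation, with symbols updated by gene number through a RefSeq table of assembly GRCm38.p6. Of 41345 probe sets, 23521 named 1 gene, 1814 several and 16010 none here. The probe set with the highest mean stood for a gene with several. The filter kept 11090 of 22180 genes. Genes were counted at 1.5-fold and 2-fold. Promoter windows came from RefSeq (GRCm38.p6). Members named in the text were all those past the filter at 1.5-fold, the 4 highest of each family, those nearest the threshold, and the other members by class; listed pathway genes were named at 1.5-fold, and others, for their role, after their values were seen. The Ugt2b sequences, P450 and carboxylesterase genes and the pairs of relatives were also chosen after values were seen.

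The members and lists were chosen with earlier results of these data known. The arithmetic of counting at 2-fold was checked on simulated data with planted differences. The 1.5-fold count and the intensity filter were not checked this way. The 6 alternatives were the mean of probe sets, no filter, a filter at the upper quartile, a pseudocount of 16, further quantile normalisation and removal of a lowess trend (fraction 0.3). Python 3.11.15, pandas 2.3.3 and statsmodels 0.14.6 were used.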

Additional observations from a re-analysis of the deposited data

How the results depend on the processing

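Across the 6 alternatives the count of members at least 1.5-fold lower ran from 5 to 9, beside 7 of 24 (29.2%) as reported. The 5 were of 17 members, with the filter at the upper quartile. The 9 were of 52 members, with no filter, a smaller share (17.3%, beside 2.8% of all genes). The count at least 1.5-fold higher was 0 except with no filter, where it was 1 (the dim Sult2a6). The count at least 2-fold lower was 2 as reported. It was 1 with a filter at the upper quartile (201.7), which removes Sult2b1 (195 on its brighter array). It was also 1 with a pseudocount of 16, after further quantile normalisation and without the intensity trend, where Sult2b1, at -1.01 as reported, was short of 2-fold. The UGT median of -0.43 was -0.19 with no filter, which adds 7 dim genes, and -0.69 with the filter at the upper quartile, which leaves fewer UGT genes. The other family medians moved by less than 0.19, the median gap between probe sets of the same gene.

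Of the 7 lower genes, 5 stayed past 1.5-fold under each setting that changes values. Gstp3 was at -0.576 with a pseudocount of 16, and Mgst3 at -0.58 without the intensity trend, just short of 1.5-fold (0.585). Among the 24 members past the filter the sign changed for 1, Mgst2 (from -0.05 to 0.02). The mean of probe sets changes no member, since each has 1. No paired analysis was possible because each diet has 1 array. Signals near or under an intensity of 69.5 limit what can be said of the 28 dimmer members.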
